A study of Caenorhabditis elegans with 2 samples.

Results

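The subject is the set of ATF-7 binding peaks that hold a full cyclic-AMP response element (CRE), the 8-base palindrome TGACGTCA, within 100 bp of the peak's summit in the worm *Caenorhabditis elegans*. They are called CRE peaks here. The list from which they were taken holds the peaks that passed the authors' threshold on the irreproducible discovery rate (IDR), a measure of how well peaks of replicates match in rank. Every summit of this list, given in build ce11, was looked up on the same assembly, WBcel235, and the CRE was searched 100 bp to each side of it. Of 2247 IDR peaks, 220 had the site and 2027 did not. For the genome cut into tiles of 201 bp, the length of this window, 5599 of 498866 tiles (1.12%) held a CRE. The rule used the genome sequence and the position of the summit, and it did not use the signal.

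The data were chromatin immunoprecipitation followed by sequencing (ChIP-seq) of whole young adult worms of strain OP638, genotype unc-119(tm4063) III; wgIs638. The integrated transgene wgIs638 expresses ATF-7 with GFP and FLAG tags at its C-terminus, and the worms were of mixed sex, synchronized by starving bleached L1 larvae. There was 1 group with 2 biological replicates, numbered 2 and 3, from separate biosamples, and all worms carried the mutation and the transgene. The description names an anti-GFP antibody and the antibody field names atf-7. Whole animals were used, so binding in a few cells and weak binding in many cannot be told apart, and the control library was not analysed here. The signal given below is the authors' value per peak relative to that control, from the pooled reads unless a replicate is named. Each list has its own scale, and signals are compared only within a list. With 1 group of 2 samples and peaks that are not replicates of each other, no test over samples was possible, so values of CRE peaks stand beside those of the other IDR peaks with no p-value. Intervals of shares are exact Clopper-Pearson intervals at 95%, which cover counting error only.

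ATF-7 belongs to the ATF and CREB family of basic leucine zipper (bZIP) factors. These proteins bind DNA as dimers, and each subunit contacts a TGACG core, so the full CRE is a palindrome with a core for each partner. Related bZIP families prefer relatives of this site. Among them is the AP-1 site of Fos and Jun, TGACTCA, in which TGA and TCA lie closer together than in the CRE. In worms ATF-7 is best known as a target of the p38 MAP kinase PMK-1 in the defence of the intestine against bacteria, and CRH-1 is the worm's CREB.

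The sequences of 9 CRE peaks show what the rule selected and how the bases beside the site vary. Each is the plus strand of WBcel235, 28 bases long, 5′ to 3′, with the CRE nearest to the summit in capitals.
Intergenic peak with the highest signal among CRE peaks, V:6000447-6000474: tcacgggggaTGACGTCAtgccgattca
*Y43F8B.2*, V:19522749-19522776: gtggtggtaaTGACGTCAtaattaggag
*dhs-25*, X:1486423-1486450: agaggttgcaTGACGTCAtagacaaacg
*cebp-1*, X:1454010-1454037: agtgaaatgaTGACGTCAttgccgccga
*irg-8*, V:418039-418066: gaaaaattagTGACGTCAttcatctaaa
*xbp-1*, III:4193726-4193753: agctccctctTGACGTCAtttcccattg
*crh-1*, III:11689580-11689607: cgacaggaatTGACGTCActttttttct
*atf-7*, III:4494682-4494709: aacagtcaggTGACGTCAacagatcgac
Peak with the lowest signal, IV:5344365-5344392: agcagtcgacTGACGTCAcgtttcaggt

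Whole windows are shown for the strongest CRE peak, for a peak with a close pair of sites and for the peak with the most sites, again on the plus strand of WBcel235, 5′ to 3′, with every CRE in capitals.
Intergenic peak on V, 121 bases around the summit, V:6000414-6000534: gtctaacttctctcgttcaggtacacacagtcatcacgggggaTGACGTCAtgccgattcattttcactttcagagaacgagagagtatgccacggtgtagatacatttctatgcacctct
*F43C11.7*, 121 bases around the summit, II:2335655-2335775: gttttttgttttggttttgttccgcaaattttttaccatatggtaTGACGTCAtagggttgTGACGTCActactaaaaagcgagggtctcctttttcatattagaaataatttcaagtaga
*lido-8*, 201 bases around the summit, II:2997903-2998103: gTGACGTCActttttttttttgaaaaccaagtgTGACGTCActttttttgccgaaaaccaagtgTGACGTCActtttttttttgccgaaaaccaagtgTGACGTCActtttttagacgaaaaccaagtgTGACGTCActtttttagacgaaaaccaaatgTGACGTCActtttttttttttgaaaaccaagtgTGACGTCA

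The strongest CRE peak lay in intergenic sequence, outside the promoters of coding genes. Intergenic here means outside protein-coding genes, so non-coding RNA genes can lie in it. The peak covered V:6000220-6000770 and had a signal of 1529.2, rank 2 of the whole IDR list. In replicate 2 its signal was 575.0, the highest of that replicate's list, and in replicate 3 it was 955.4, rank 2. The summit lay 13.5 bp from the centre of the CRE, inside the non-coding RNA gene *C10F3.15* and 3127 bp upstream of the nearest coding 5′ end, that of *fos-1*, a worm Fos gene. Another intergenic CRE peak, X:12872184-12872684, had a signal of 966.3 (314.6 in replicate 2 and 649.7 in replicate 3) and lay 4987 bp upstream of *bcat-1*, a branched-chain amino acid transaminase gene, and 175 bp from the non-coding RNA gene *T14G8.5*. In both replicates these peaks ranked with the strongest promoter peaks.

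At promoters, taken as 1000 bp upstream to 200 bp downstream of a coding transcript's 5′ end, the strongest CRE peak was that of *Y43F8B.2* (V:19522492-19523159), in its 5′ UTR, with 1064.0 (433.0 in replicate 2 and 633.1 in replicate 3). *F02E9.5* followed with 1055.6 (410.7 and 641.9), and its CRE was centred 0.5 bp from the summit. *dhs-25*, a short-chain dehydrogenase gene (X:1486233-1486655, summit 106 bp upstream), had 905.8 (378.4 and 526.3), in a peak that also lies in promoters of *D1005.10* and *D1005.4*. A peak in a coding exon of *K11D12.14*, which also lies in the promoter of *pqn-51*, had 776.7 (244.5 and 530.9). In each of these peaks replicate 3 had the larger number, but each replicate's list has its own scale, so this is no difference in binding.

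The next promoter peaks lay at *xbp-1*, whose product drives the unfolded protein response (III:4193582-4193982, signal 707.8), and at *F59B1.8* (V:3644311-3644665, 700.6). The signals of *xbp-1* were 272.3 in replicate 2 and 437.3 in replicate 3, and its CRE lay 13.5 bp from the summit. After a gap came *ipla-6* and *mif-4*, which share a peak (480.0), *F55H12.7* (456.6), *arp-11*, a subunit of the dynactin complex (420.9), *R08E3.1* (417.7), *vps-60*, of the ESCRT-III machinery (408.7), and *crh-1* (398.2). Of these 12 peaks, 8 lay in intergenic sequence, 3 in a 5′ UTR and 1 in a coding exon.

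The signal of CRE peaks spanned the whole range of the list. It ran from 104.6 to 1529.2 with a median of 168.6 and quartiles of 125.4 and 270.9, against a median of 147.1 and quartiles of 121.1 and 199.3 for the other IDR peaks. The ratio of medians was 1.15, with 1.21 in replicate 2 (69.5 against 57.3) and 1.08 in replicate 3 (103.5 against 95.9). The lower quartiles lay close together and the upper quartiles apart, so within the list the groups differed more among strong peaks. Both groups begin at 104.6, where the list ends, so their lower quartiles had little room to differ. Of the 224 IDR peaks with the highest signal, 40 had the CRE (17.9%, interval 13.1 to 23.5), and they were 18.2% of all CRE peaks. The share was 12.9% in the next 225 peaks and lay between 5.78% and 10.3% in the 8 weaker bins of the list, with no further order among them. The weakest CRE peaks, in an intron of *daf-14* (106.0), in *T02C5.1* (105.2), in *F02D8.4* (104.7) and on IV:5344164-5344599, 11 bp from a tRNA gene (104.6), lay at the bottom of the IDR list itself.

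**Figure D1:**
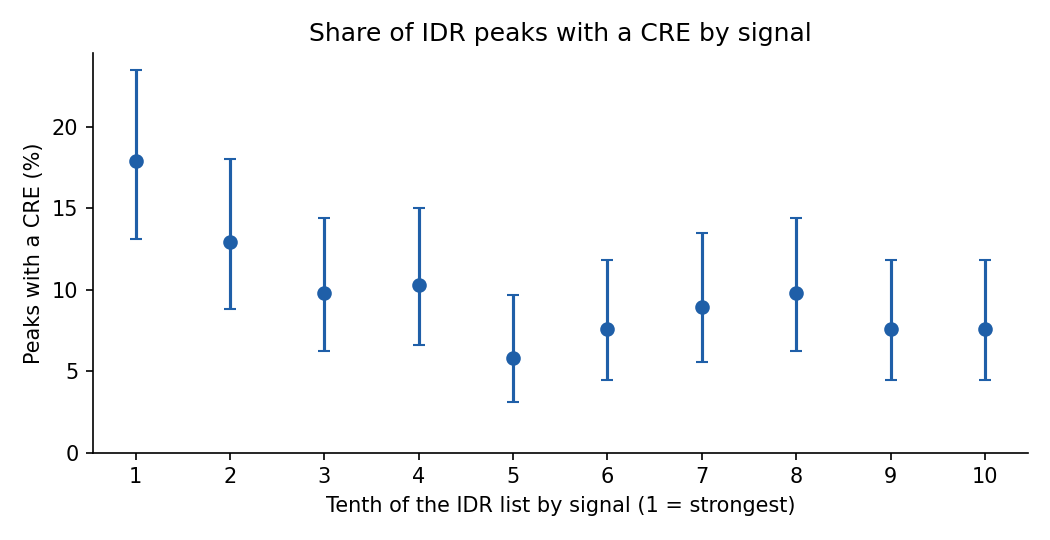
The share of IDR peaks with a CRE (y axis, percent) in 10 bins of the IDR list ordered by signal (x axis, 1 = strongest), with points for the share and bars for the exact 95% interval. The strongest bin stands at 17.9%, the next at 12.9% and the others between 5.78% and 10.3%.

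CRE peaks were found in both replicates, which the derivation of the IDR list favours for any of its peaks. A summit of each replicate lay within 100 bp of 210 of the 220 (95.5%, interval 91.8 to 97.8), beside 92.8% of the other IDR peaks. The 10 that lacked a summit in a replicate were weak, with a median signal of 122.1 and a range of 107.1 to 199.3. Across the 210 peaks, Spearman's rho between the replicates' signals was 0.777, and it was 0.563 across the 1882 other peaks with both. These are descriptions across peaks that share the same 2 libraries. The median log2 ratio of replicate 3 to replicate 2 was 0.59 (SD 0.453 across peaks) for CRE peaks and 0.79 (SD 0.551) for the others. The median rank of CRE peaks was 760.5 in the list of replicate 2 and 966 in that of replicate 3, against 1212 and 1133. The summits of the replicates lay a median of 21 bp apart at CRE peaks and 28 bp apart at the others.

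**Figure D2:**
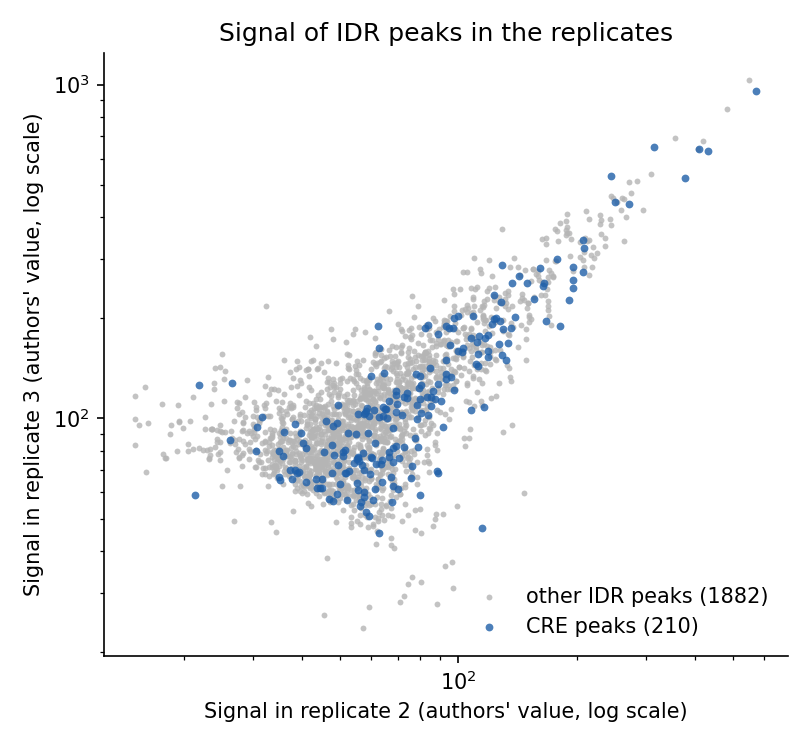
The signal of each IDR peak in replicate 2 (x axis, log scale) and replicate 3 (y axis, log scale), in the authors' units, for the peaks with a summit of both replicates within 100 bp, with 210 CRE peaks in blue and 1882 other IDR peaks in grey. CRE peaks follow the diagonal cloud of the other peaks, with a rho of 0.777 against 0.563.

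The CRE lay close to the summit within the window that the rule allowed. The median distance from the summit to the centre of the nearest CRE was 22.5 bp (quartiles 9.50 and 42.5), and the greatest was 94.5 bp. It was within 10 bp in 56 peaks (25.5%), within 20 bp in 99 (45.0%) and within 50 bp in 180 (81.8%). From the summits of the replicates the medians were 23 bp in replicate 2 and 23.5 bp in replicate 3. These summits were taken within 100 bp of the IDR summit, the strongest if there were several, so the values are no independent check. The nearest site lay on the side of the lower coordinate in 105 peaks (47.7%). In 54 of the 105 promoter peaks (51.4%) it lay on the side of the 5′ end. Peaks whose site was within 10 bp had a median signal of 181.4 and those at 10 to 20 bp 194.7, against 154.6 at 20 to 40 bp and 153.7 at 40 to 100 bp.

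**Figure D3:**
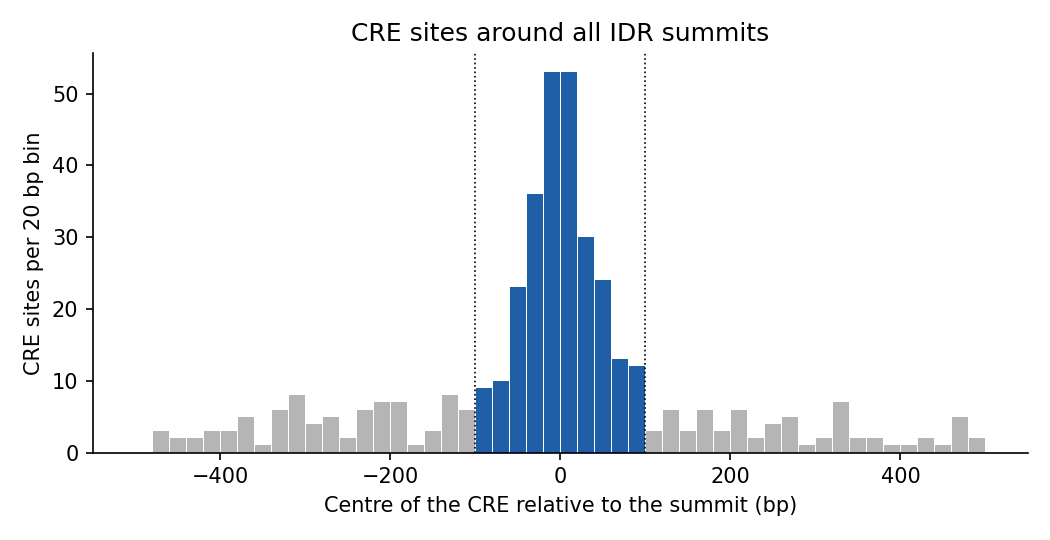
The number of CRE sites per 20 bp bin (y axis) by the position of the site's centre relative to the summit (x axis, bp), over all 2247 IDR peaks, with the bins inside the 100 bp limit in blue and those outside in grey. Both bins beside the summit hold 53 sites, and the last bins inside the limit hold 9 on the lower side and 12 on the upper side.

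At the limit itself the members just inside were *aagr-2*, an acid alpha-glucosidase related gene (94.5 bp, signal 332.3), an intergenic peak near a chromosome end (94.5 bp, 319.4) and *C32D5.8* (91.5 bp, 297.7). The IDR peaks just outside were at *xrep-4* (105.5 bp, 126.9), *hrg-1* (106.5 bp, 188.9) and *K12C11.1* (115.5 bp, 155.8).

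Most CRE peaks had a single site. The 220 windows held 263 sites, with no site shared between windows. There were 191 peaks with 1 site, 23 with 2, 2 with 3, 2 with 4, 1 with 5 and 1 with 7, so 29 peaks (13.2%) had 2 or more. More sites did not go with a higher signal. The median was 169.3 for the 29 peaks and 168.2 for the 191, a ratio of 1.01, and in the replicates' own lists it was 0.968 in replicate 2 and 0.898 in replicate 3. The strongest peak with 2 or more sites ranked 83 in the IDR list, and 15 of the 191 peaks with 1 site ranked above it. This rank was read from the data, so the count above it is a description and no further support.

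Among the peaks with 2 sites, the highest signal was in an intron of *crh-1* (III:11684821-11685121, signal 440.3, 161.3 in replicate 2 and 281.8 in replicate 3). The others among the 8 strongest were at *F53C3.6* (345.1), *ksr-2*, kinase suppressor of Ras (320.7), *T21H3.1* (282.5), *try-10*, of the trypsin-like proteases (271.4), *F43C11.7* (269.1), an intergenic position on X (X:15347633-15348068, 216.0) and in a coding exon of *R10E12.2* (194.7). With 3 or 4 sites there were *abt-2*, an ABC transporter gene (4 sites, 217.3), an intergenic peak on chromosome III (III:3377097-3377532, 4 sites, 186.4), *unc-119* (3 sites, 169.3) and *slc-17.6*, a solute carrier gene (3 sites, 132.3).

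Neighbouring sites within a peak made 43 pairs, whose starts lay 16 to 151 bp apart with a median of 38.0 bp. Of these, 24 pairs were at 40 bp or less, and 31 bp was the most frequent spacing, with 6 pairs. That spacing came mostly from *lido-8*, whose window is printed above. Without the peaks of this gene 33 pairs remained, with a median of 43 bp and 2 pairs at 31 bp. No pair overlapped, and the closest was the pair of *F43C11.7*, whose starts are 16 bp apart.

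**Figure D4:**
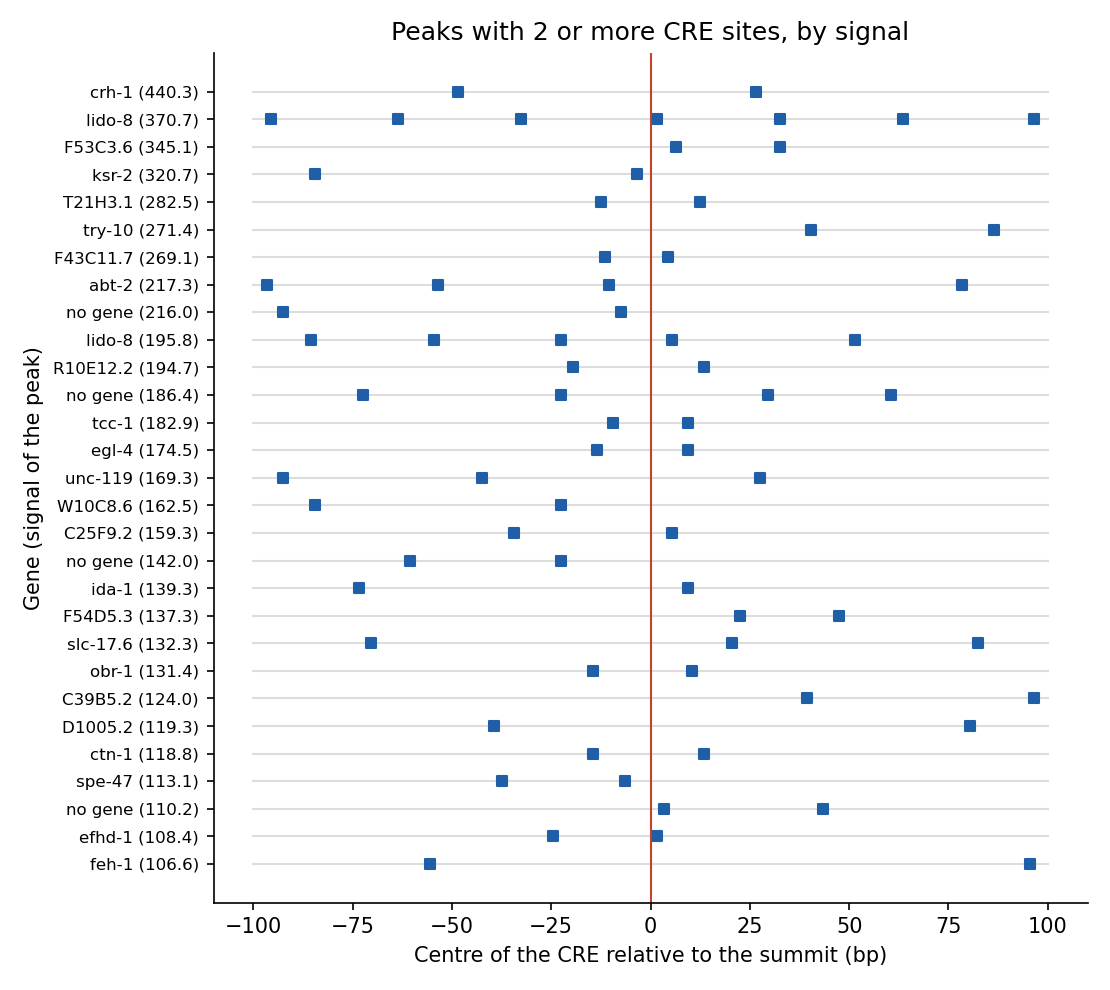
The 29 CRE peaks with 2 or more sites, 1 line per peak in the order of signal, with the value beside the gene. The label "no gene" marks a summit in no protein-coding gene and in no promoter of one. Squares stand at the centre of each CRE relative to the summit (x axis, bp, red line at the summit). The stronger *lido-8* peak has 7 sites across the window, the most of any, and most of the other peaks have a single pair.

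*lido-8* (II:2997021-3000653) held a tandem array. Its intron carried 15 CREs between 2997811 and 2998271, spaced 28 to 46 bp with a median of 31.0 bp, and 13 of the 14 spacings were between 28 and 34 bp. CRE peaks covered II:2997895-2998048 (7 sites, signal 370.7, 181.3 in replicate 2 and 188.5 in replicate 3) and II:2998069-2998258 (5 sites, 195.8, with 115.0 and 46.8). The stronger peak ranked 70 in the list of replicate 2 and 226 in that of replicate 3. The weaker peak ranked 220 and 4693. The sites stand in near-identical repeat units, and 9 of them had a 24-base context (the CRE with 8 bases on each side) found more than once in the genome. The treatment of reads that fit several places is not given in the sources used here. Its part in these signals was not tested.

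The location of CRE peaks differed from that of other IDR peaks inside genes more than at promoters. In promoters lay 105 of 220 (47.7%, interval 41.0 to 54.5), near the 49.2% of the other IDR peaks. Intergenic sequence, promoters included, held 103 (46.8%, interval 40.1 to 53.6) against 59.3%. Introns held 73 (33.2%, 27 to 39.8) against 24.6%, and coding exons held 32 (14.5%, 10.2 to 19.9) against 9.27%. UTRs held 6 at the 5′ and 6 at the 3′ end (2.73% each) against 3.21% and 3.65%. Promoters of both strands at once held 10 CRE peaks (4.55%, 2.2 to 8.20) against 9.03%. Within 200 bp of a tRNA gene there were 5 (2.27%, 0.742 to 5.22) against 8.78%. The genome's CREs themselves often lie inside genes. Of 6026 sites, 2206 were in introns, 1537 in coding exons and 2114 in intergenic sequence. At an IDR summit lay 4.49% of those in introns, 2.28% in coding exons and 5.44% in intergenic sequence. The higher shares of CRE peaks in introns and coding exons thus do not show a preference of ATF-7 for CREs inside genes. The shares set side by side were not tested against each other.

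Chromosomes III and I held 46 and 45 CRE peaks, V held 41, II 36, X 30 and IV 22. The X chromosome had 13.6% of the CRE peaks (interval 9.39 to 18.9) and 22.7% of the other IDR peaks. The number of CREs in the sequence differs between chromosomes too, with 684 on X and 1281 on I. Of these, 4.68% on X and 4.29% on I lay at an IDR summit, and the range over chromosomes was 2.36% on IV to 6.30% on III.

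Signal differed by location among CRE peaks. The median was 197.9 for the 105 in promoters and 145.2 for those outside, while for other IDR peaks it was 149.2 and 145.1. By class it was 186.4 for intergenic CRE peaks (other IDR peaks 153.2), 162.3 in introns (144.6), 130.7 in coding exons (129.7), 346.2 for the 6 in 5′ UTRs (133.4) and 157.9 for the 6 in 3′ UTRs (131.4). The coding exon peaks thus had the median of other coding exon peaks. In promoters the median position was 254 bp upstream of the 5′ end (quartiles 79.0 and 484), against 210.5 bp for other peaks.

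CRE peaks in promoters belonged to 114 of 19973 protein-coding genes (0.571%), where IDR peaks of any kind belonged to 1245 (6.23%). Of these 114 genes, 12 also had another IDR peak in a promoter, and 4 had 2 or more CRE peaks. Of the 1444 genes with a CRE anywhere in a promoter, 112 (7.76%) had a CRE peak there, and 179 (12.4%) had an IDR summit of any kind, against 5.75% of the genes without a CRE in a promoter.

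Genes with several CRE peaks show how the same factor's sites can be spread over a gene. *Y43F8B.2* had, besides its strongest peak, V:19533592-19533792 (signal 261.0, summit 600 bp upstream of another of its 5′ ends) and V:19532076-19532511 (120.8), which had no summit of replicate 3 within 100 bp. *crh-1* had the peak in its 5′ UTR (III:11689438-11689703, 398.2), the intronic peak with 2 sites (440.3) and III:11657181-11657616 (152.5, 368 bp upstream of another 5′ end). *mnk-1*, a MAP kinase interacting kinase gene, had 175.0 in a coding exon and 160.8 in an intron, both within promoters of its transcripts. *ida-1*, a dense-core vesicle protein gene, had 402.2 and 139.3, both in introns, and *nrsn-1*, a neurensin gene, had 318.3 upstream and 128.5 in an intron.

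Genes of bZIP factors, the family of ATF-7, were the list with most genes that had a CRE peak. Of 29 such genes 16 had an IDR peak in a promoter (55.2%, beside 6.23% of all protein-coding genes). A CRE peak lay there in 4 (13.8% of the list, beside 0.571% of all protein-coding genes). These 4 were 25% of the bound genes of the list, beside 9.16% of all bound genes, and such small counts set nothing apart. *xbp-1* and *crh-1* were described above. *cebp-1*, a C/EBP factor that acts in axon regeneration downstream of the kinase DLK-1, had X:1453871-1454197 (signal 396.7, 149.6 in replicate 2 and 254.3 in replicate 3, summit 175 bp upstream, CRE 19.5 bp from the summit). *atf-7* itself had III:4494571-4494796 in an intron, 230 bp upstream of an internal 5′ end (240.2, with 62.3 and 188.5). The bZIP list has been seen to be rich in bound genes in earlier results of these data, so its count here is no independent support.

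The shares of all protein-coding genes to read beside the next lists are 6.23% bound and 0.571% with a CRE peak in a promoter, and 9.16% of all bound genes had such a peak. The stress MAP kinase list had 8 of 24 genes bound (33.3%) and 3 with a CRE peak in a promoter (12.5%), which were *cebp-1*, *atf-7* and *tpa-1*. The protein kinase C gene *tpa-1* (IV:102782-103217, signal 132.4, 48.3 and 77.9 in the replicates) had a weak peak centred 1.5 bp from its CRE. In the endoplasmic reticulum stress list 11 of 29 genes were bound (37.9%), and *xbp-1* was the only gene with a CRE peak in a promoter (3.45%). In the mitochondrial stress list 3 of 12 were bound (25%), with a CRE peak in the promoter of 1 gene (8.33%), *clpp-1*, the mitochondrial ClpP protease (II:10302810-10302918, 199.8, with 80.1 and 125.7, 12 bp upstream). The cAMP signalling list had 9 of 23 bound (39.1%) and a promoter CRE peak at *crh-1* alone (4.35%). The peaks of *cebp-1*, *atf-7*, *xbp-1* and *crh-1* are those of the bZIP list and are counted again here, while those of *tpa-1* and *clpp-1* are not in it.

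Other bound lists had no CRE peak in a promoter. These were heat shock (9 of 22 genes bound), secretory pathway (10 of 36), autophagy (6 of 27), cytosolic ribosomal proteins (22 of 79), vacuolar ATPase (6 of 21), basic helix-loop-helix factors (5 of 41), histones (3 of 72), proteasome (2 of 32), homeobox genes (2 of 94) and cuticle collagens (1 of 175). Of all bound genes 9.16% had a CRE peak, so lists with few bound genes would hold few or none at that share.

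Defence genes are the class for which ATF-7 is known. Of 328 innate immune effector genes 14 were bound (4.27%, beside 6.23% of all protein-coding genes) and 3 had a CRE peak in a promoter (0.915%, beside 0.571%). These 3 were 21.4% of the bound genes of the list, beside 9.16% of all bound genes, and counts this small set nothing apart. They were *irg-8*, an infection response gene (V:417998-418106, signal 219.0, 97.5 and 121.3 in the replicates), *cnc-8*, of the caenacin antimicrobial peptides (X:10306416-10306541, 187.7, with 74.0 and 114.8), and the C-type lectin gene *clec-126* (II:3519317-3519497, 175.2, with 80.2 and 103.6). The peak of *irg-8* is also in a promoter of *Y39D8A.1*.

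Of 274 nuclear hormone receptor genes 24 were bound (8.76%) and 3 had a CRE peak in a promoter (1.09%), shares near the 6.23% and 0.571% of all protein-coding genes. They were *nhr-88* (272.4), *nhr-49*, a regulator of fatty acid metabolism (199.0), and *nhr-43* (125.0). Outside promoters, CRE peaks also lay in introns of the receptor genes *daf-12*, which acts in dauer formation (286.5), and *nhr-137* (184.4). Of 143 insulin-like and neuropeptide genes 2 were bound (1.4%) and 1 had a CRE peak in a promoter (0.699%), where *nlp-40*, an intestinal peptide that times defecation, had a signal of 279.8 (with 111.7 and 169.7).

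CRE peaks lay at *atf-7*, which the transgene copies, and at *unc-119*, which is mutated in the strain. Within 20 kb of *atf-7* lay 13 IDR peaks, of which 2 were CRE peaks, that of *atf-7* (240.2) and that in an intron of *cct-5*, a chaperonin subunit gene (III:4506754-4507189, 224.2, 62.6 and 162.3 in the replicates). Within 20 kb of *unc-119* the only IDR peak was the CRE peak in its intron (III:10902965-10903400, 169.3, with 64.4 and 101.9 in replicates 2 and 3). Transgenes of the wgIs series are generally made with *unc-119* as the rescue of the mutation, but the full content of wgIs638 is not given in the sources used here. Where it copies a locus, reads of the chromosome and of the transgene cannot be told apart.

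The genome holds far more CREs than ATF-7 peaks. Of 6026 sites on the nuclear chromosomes 263 (4.36%, interval 3.86 to 4.91) lay within 100 bp of an IDR summit, and a further 1291 (21.4%) lay within 100 bp of a summit of the relaxed lists, which hold up to 30000 peaks and include background. The remaining 4472 were within 100 bp of no summit, though some may lie inside the span of a wide peak. The same share was 1.21% for the shorter core TGACG, 1.24% for TGACGTGG, the core of the unfolded protein response element, 1.2% for TGACGTAA, 1.48% for TGACGCAA and 0.255% for the scrambled word TCAGATGC. It was 1.65% for the E-box CACGTG and 4.23% for the GA repeat GAGAGAGA, which was close to that of the CRE. The further share at relaxed summits only was 21.4% for the CRE. Among the other words named here it ran from 6.64% for the scrambled word to 16.5% for the GA repeat. Words were counted on both strands, and each overlapping copy was counted, so a run of GA gives many copies. The 17135 copies of the GA repeat compare with 6580 tiles of 201 bp that hold it, and the 6026 CREs with 5599 tiles. The shares of the GA repeat and the CRE are therefore over unlike units. TGACG is part of the CRE and of the words that begin with it, and those copies are in its count.

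Position in the genome went with occupancy of the site. In promoters 130 of 1558 CREs were at an IDR summit (8.34%, interval 7.02 to 9.83), and outside them 133 of 4468 (2.98%, 2.50 to 3.52). IDR peaks without a CRE lay in promoters about as often as CRE peaks (49.2% and 47.7%). The contrast is thus not shown to be particular to the CRE. Part of the CREs lie in repeats. Of the 4469 sites whose 24-base context occurs once in the genome, 250 (5.59%) were at an IDR summit, against 13 of 1557 (0.835%) with a repeated context, 9 of them in *lido-8*. None of the 786 sites in contexts found 10 or more times was at an IDR summit. At a summit of the relaxed lists there were 73 (9.29%), beside 6.64% for the scrambled word. The most frequent context has 175 copies. The handling of reads from repeats was not tested. With unrepeated contexts only, the shares were 10.3% in promoters and 3.93% outside, and 8.13% in intergenic sequence, 6.03% in introns and 2.36% in coding exons. Of the 220 CRE peaks, 215 had a site with an unrepeated context.

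The bases next to the CRE also went with occupancy. Since the site is a palindrome, each copy has an outer base before it on either strand, and the pair of these bases was counted regardless of strand. Among unrepeated sites with adenine on both strands, ATGACGTCAT, 88 of 737 were at an IDR summit (11.9%, interval 9.69 to 14.5), and a further 45.9% were at a summit of the relaxed lists. With adenine and guanine, ATGACGTCAC, it was 86 of 1238 (6.95%), and with guanine on both, GTGACGTCAC, it was 38 of 629 (6.04%). Sites with cytosine and guanine, CTGACGTCAC, were at an IDR summit in 7 of 639 cases (1.10%, interval 0.442 to 2.24). With cytosine on both, CTGACGTCAG, none of 36 was, which allows up to 9.74% by the exact interval.

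With a purine before the site on both strands the share was 8.14% (212 of 2604, interval 7.12 to 9.26), and with a pyrimidine on at least 1 strand it was 2.04% (38 of 1865, 1.45 to 2.79). The order was the same within promoters, at 14% (99 of 705) and 4.58% (21 of 459). Among all 263 sites at CRE peaks, 88 (33.5%) were ATGACGTCAT, another 88 were ATGACGTCAC and 47 (17.9%) were GTGACGTCAC, and 84.8% had a purine on both strands. Unrepeated sites with no summit within 100 bp had 49.4%. Among the printed sequences, those of the peak on V, *Y43F8B.2*, *dhs-25* and *cebp-1* have adenine on both strands, and that of the weakest peak has cytosine and guanine.

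**Figure D5:**
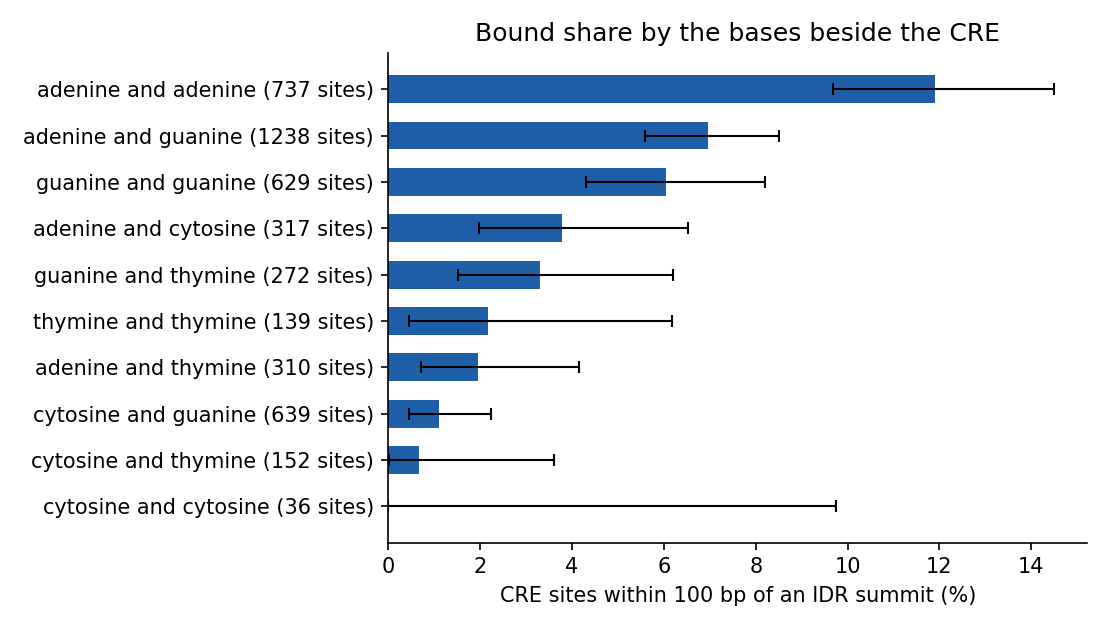
The share of genomic CREs with an unrepeated context that lie within 100 bp of an IDR summit (x axis, percent), by the pair of bases that precede the site on its strands (number of sites in brackets), with bars for the share and lines for the exact 95% interval. Sites with adenine on both strands stand at 11.9%, the other purine pairs at 6.95% and 6.04%, and each pair with a pyrimidine below 4%.

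Within the list the outer bases went less clearly with signal than with occupancy. Among the peaks with 1 site the median signal was 199.2 for adenine on both strands (67 peaks), 141.9 for adenine and guanine (65) and 173.7 for guanine on both (23). It was 170.7 for all with purines on both (155) and 159.4 for the others (36). Strong peaks were also found without the purine pair. The highest was that of *F02E9.5* (1055.6), with adenine and cytosine. The 8 peaks with cytosine and guanine had a median of 151.8 and an upper quartile of 500.7, and reached 966.3 at X:12872184-12872684. The site of *xbp-1* has thymine before it on the plus strand, and its peak ranked 18 in the IDR list.

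Other motifs in the windows of CRE peaks were mostly as frequent as in other IDR peaks, in a search of both strands of the same windows. Copies that overlap a CRE were left out. The E-box CACGTG was at 13.6% of CRE peaks and 11.5% of the others (3.33% of all 201 bp tiles of the genome), the GATA factor site TGATAA at 25.9% and 28.3% (17.9% of tiles), and the GA repeat at 7.27% and 9.03% (1.32% of tiles). The AP-1 site, TGACTCA on either strand, was at 12 CRE peaks (5.45%, interval 2.85 to 9.33) and at 2.32% of the others (1.83% of tiles), and TGACGTGG at 9 (4.09%, interval 1.89 to 7.62) and 1.53% (0.620% of tiles). TGACG outside the CRE was at 28.6% and 33.9%. No CRE peak had TGACGTAA (up to 1.66% by the exact interval), against 1.18% of the other peaks. The G and C content of the windows had a median of 41.8% for CRE peaks and 42.8% for the others.

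The 57 CRE peaks with a GATA site had a median signal of 192.8 and the 163 without it 163.9, while other IDR peaks had 146.8 and 147.4. The 9 with TGACGTGG had 133.2, below the 169.4 of those without, and 6 of the 9 lay in coding exons. None of these differences within the list was tested, and each is a description of these peaks.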

How the data were processed

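The authors' peak lists in build ce11 were used as deposited. Per the labels and the deposited listing, the authors called relaxed peaks on the reads of each replicate and on both together, and took the IDR list from these. Which aligner, caller and threshold they used is not given in the sources used here. Relaxed peaks numbered 28126 in replicate 2 and 30000 each in replicate 3 and the pool, which held all 2247 IDR peaks. The deposited signal is the authors' value per peak relative to a control, used to rank and describe peaks within a list. Read depth is not known from the files. The deposited lists in build ce10 were not used.

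Sites and genes came from the WBcel235 genome and Ensembl release 115, with Python 3.11.15, numpy 2.4.6, scipy 1.17.1 and matplotlib 3.10.9. The site search found 600 of 600 CREs planted in simulated sequence. Values for a replicate are those of its strongest summit within 100 bp of the IDR summit. The members and the 18 gene lists were chosen with earlier results of these data known. Genes were named by rule. These are the 12 strongest CRE peaks in promoters, those with 3 or more CREs and the 8 strongest with 2, all in the promoters of the bZIP, stress and cAMP lists, up to 4 of each other list, the 4 weakest, and 3 on each side of the 100 bp limit. Peaks outside promoters with the highest signals, genes with several CRE peaks and genes near atf-7 and unc-119, and receptor genes with intronic CRE peaks, were named after their values were seen.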

Additional observations from a re-analysis of the deposited data

How the results depend on the processing

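No paired analysis was possible because the data form 1 group and no test was made. Of the alternatives, the one that keeps only CREs with an unrepeated context was chosen after seeing the data. Among the 1123 IDR peaks with the highest signal, there were 127 CRE peaks, 17 with 2 or more sites, 55.9% in promoters, a median distance of 19.5 bp, a signal ratio to other peaks of 1.2, and 2.61% of genomic CREs at a summit. With 50 bp to each side of the summit 16 peaks had 2 or more sites, the median distance was 16.5 bp and the genomic share 3.17%, and with 200 bp these last values were 24.5 bp and 4.96%. Narrower windows and fewer peaks lower these counts by construction. Promoters of 500 bp upstream and 100 bp downstream held 33.6% of CRE peaks, and those of 2000 bp upstream held 63.2%. With the 2247 strongest peaks of a single replicate in place of the IDR list, there were 192 CRE peaks without replicate 2 and 259 without replicate 3. The median distance was then 22.5 to 23.5 bp, the signal ratio 1.09 to 1.14 and the genomic share 3.68% to 5.08%. With unrepeated contexts the genomic share was 5.59%.

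The ratio of signal between peaks with 2 or more sites and those with 1, at 1.01, did not keep its direction. It was 1.06 with 50 bp windows, 0.842 with 200 bp windows, 0.873 among the strongest peaks, 0.947 to 0.981 with single replicates and 0.981 with unrepeated contexts. The cause was not tested. Over the alternatives the number of genes with a CRE peak ranged from 78 to 163, against 114, and the share of sites with adenine on both strands from 32.4% to 37.7%, against 33.5%. Read depth is unknown, so a CRE without a peak is not shown to be unbound.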
